A study of Homo sapiens with 18 samples.

Results

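The genes described here encode the subunits of the proteasome, its activators and inhibitor, and the chaperones that assemble it. They were taken from the count table by name, as every symbol made of PSM, a letter from A to G and a number, together with ADRM1, POMP and PAAF1, which gave 51 of the 27781 genes. K562 is an erythroleukaemic line from a patient with chronic myeloid leukaemia. The control group was K562 cells transfected with scrambled antisense gapmers. The knockdown group was K562 cells transfected with gapmers against the backsplice junction of the circular RNA circPCMTD1. The submitters' descriptions say siRNA where their protocols and design say gapmers, and gapmers were taken here. Beyond these, no allele or agent is named in either group. Total RNA was collected 48 hours after transfection and depleted of ribosomal RNA, and each group had 3 biological replicates, each sequenced as 3 technical libraries that were summed here into 6 samples by the first of the 2 numbers in their labels, which do not say which number is the biological replicate. The question was which proteasome transcripts differ when circPCMTD1 is targeted.

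The proteasome degrades proteins that carry ubiquitin chains. Its core particle is a barrel of alpha and beta rings in which 3 beta subunits, PSMB5, PSMB6 and PSMB7, cut the substrate, and the regulatory particle, made of a base with ATPases and a lid with a deubiquitinase, binds, unfolds and feeds it. Under interferon, PSMB8, PSMB9 and PSMB10 replace the 3 constitutive catalytic subunits to form the immunoproteasome, and PSME1 and PSME2 together form a cap that opens the core without ATP. Subunit genes are known to be transcribed together under NFE2L1, which is activated when proteasome capacity falls short.

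Library totals ran from 19118533 to 29432699 counts and those of the summed samples from 63851576 to 76087774. The count for PCMTD1, which includes linear and circular transcripts of the gene, was 20.0, 19.8 and 21.9 CPM (counts scaled to a common library size with TMM factors) in the scrambled samples and 12.6, 11.7 and 12.5 CPM in the knockdown samples (log2 fold change -0.74 ± 0.052 SE, edgeR adjusted p = 7.573e-10). The labels call the cells lymphoblasts, while the 10 erythroid markers summed to 13400 to 13700 CPM in the scrambled and 14000 to 14800 CPM in the knockdown samples and the 9 B and T lymphoid markers to 4.90 to 5.56 and 7.51 to 7.70 CPM. Of the erythroid markers, the globins HBG1, HBG2, HBE1 and HBZ, which make up most of the sum, were raised, and ALAS2 and TAL1 were lowered. MS4A1 was at 0 in every sample and 6 of those 9 genes stayed under 0.2 CPM, most of the sum being CD3D. In bulk RNA, fewer cells of a type and less RNA per cell cannot be told apart. Over the 49 tested proteasome genes, the log2 difference of each library from the other libraries of its group was set against the GC content of the transcripts. Knockdown libraries 3_2 and 3_3 were at the low end of a continuous range, with Spearman coefficients of -0.747 and -0.777, against -0.671 (scrambled library 3_1) to 0.673 (knockdown library 1_2) in the other 16 libraries. Calls of proteasome genes that differ without libraries 3_2 and 3_3 are given beside each class. Those libraries stand out over these same genes, and scrambled library 3_1 was kept. Leaving them out trims only the knockdown group and leaves knockdown library 3_1 alone in its replicate. The p-values without them are therefore description and not separate support.

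Of the 51 genes, 49 passed the filter on low counts and were tested among 15678 genes. PSMA8, an alpha subunit of the testis, had 1 count in all 18 libraries and PSMB11, the beta subunit of the thymus, had 3, and neither was tested. One tested gene passed an adjusted p of 0.05: PSME1 was raised, and 0 of 49 were lowered. That is 1 of 49 (2.04%), where 18.6% of all tested genes passed, 11.1% raised and 7.49% lowered. At an unadjusted p under 0.05, edgeR had 8 of the 49 genes lower and 1 higher, where 14.2% of all tested genes were lower and 17.0% higher. DESeq2 called 1 raised and 2 lowered, PSMD14 and PSMA5, at an adjusted p under 0.05, where it called 7.83% of all genes lowered. The 3 knockdown values did not overlap the 3 scrambled values for 8 of the 49 genes (16.3%), 1 higher and 7 lower, against 34.6% of all tested genes.

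The sizes of the differences were small. The median log2 fold change of the 49 genes was -0.0184, with 0.00221 over all tested genes, and the median absolute log2 fold change was 0.0323, with 0.0809 over all. The 95% interval lay within a 1.2-fold change in either direction for 46 of the 49 genes and for 9470 of the 15678 tested genes. It lay within a 1.1-fold change for 43 of the 49 and for 5040 of all. These comparisons with all tested genes were not matched for level, and intervals are wider at low counts, as for PSMB8 and PSMB9. For the 46 genes other than PSME1, PSMB8 and PSMB9, the intervals spanned at most -0.219 to 0.123 on the log2 scale, with standard errors of 0.0247 to 0.0518. The fitted value was below 0 for 36 of the 49 genes and for 7706 of the 15678 tested genes. It was below 0 for 26 of the 49 when counts were scaled by library totals only. Summed over all 51 genes, the level was 6364, 6322 and 6286 CPM in the scrambled samples and 6221, 6217 and 6240 CPM in the knockdown samples.

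**Figure D1:**
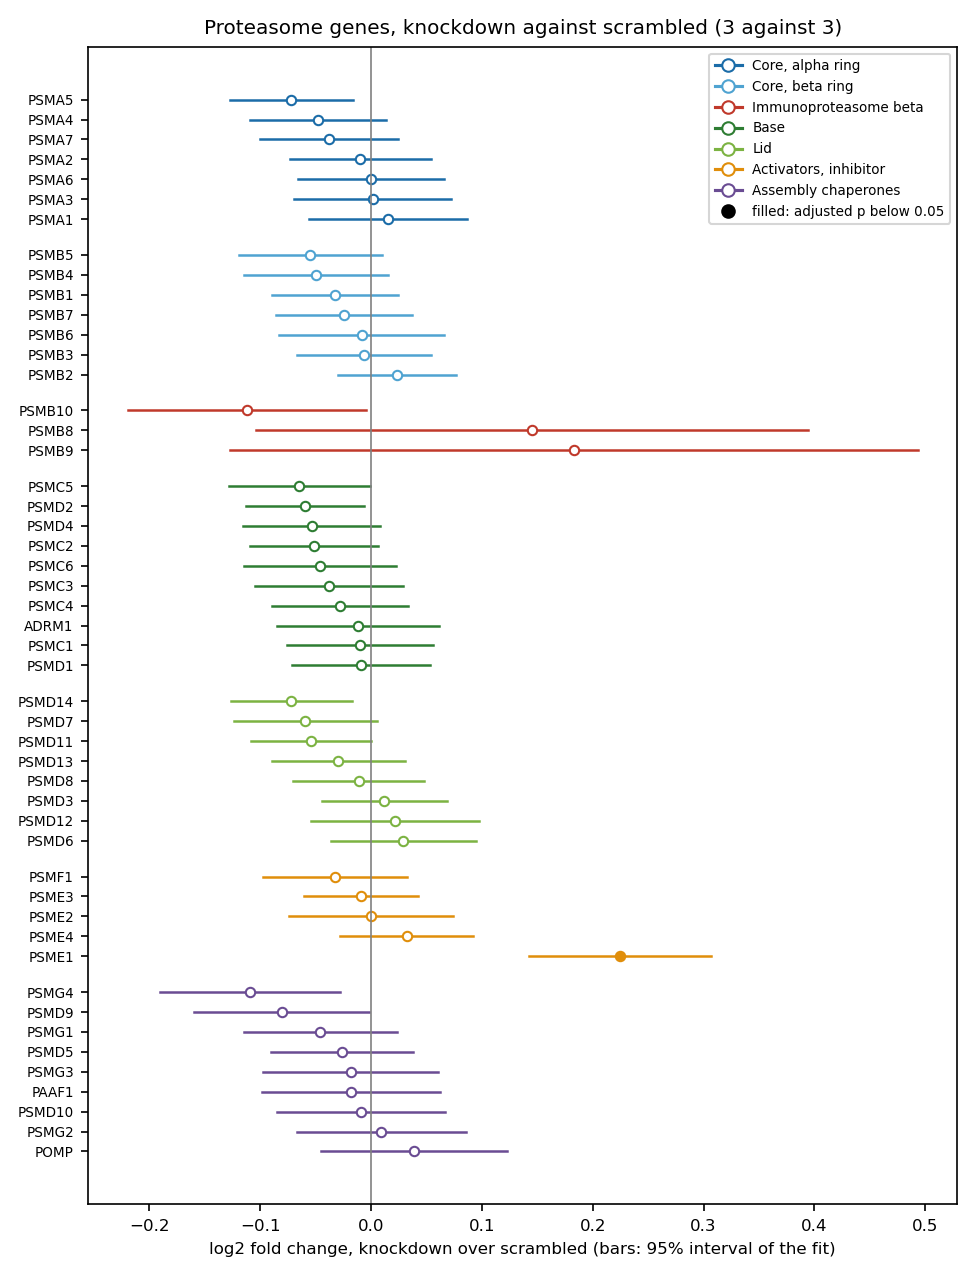
Log2 fold change, knockdown over scrambled, of each of the 49 tested proteasome genes on the x axis, grouped by role on the y axis, with bars for the 95% interval of the edgeR fit and a filled point for an adjusted p below 0.05. PSME1, at 0.22, is the only filled point, and the intervals of PSMB8 and PSMB9 are the widest.

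The alpha ring shapes and gates the entrance of the core. None of its 7 tested genes passed the test, and their median log2 fold change was -0.00989, ranging from -0.0721 to 0.0154. Levels are compared between genes only per kilobase of transcript, as CPM per kb of the longest principal transcript. On that scale the scrambled levels of the ring ran from 36.3 CPM per kb for PSMA4 to 164.2 CPM per kb for PSMA7. PSMA7 was the highest alpha gene also per kb of all annotated exons, at 93.4, whereas the lowest by that length was PSMA6, at 17.1. In CPM, PSMA7 was at 164.4, 165.1 and 161.0 in the scrambled samples and 164.8, 159.8 and 153.2 in the knockdown samples, and the ranges overlapped. PSMA4 was at 160.0, 161.6 and 158.6 CPM in the scrambled samples and 150.6, 153.1 and 160.8 CPM in the knockdown samples, where replicates 1 and 2 lay below all scrambled values and replicate 3 lay among them. PSMA5 was at 168.5, 167.9 and 165.8 CPM in the scrambled samples and 159.7, 158.4 and 159.6 CPM in the knockdown samples. The PSMA5 groups did not overlap, and its log2 fold change of -0.07 ± 0.027 (SE) had an adjusted p of 0.0646. Without knockdown libraries 3_2 and 3_3, PSMA4 (log2 fold change -0.08, adjusted p = 0.00038) and PSMA5 (-0.08, adjusted p = 9.18e-05) were lowered.

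The beta ring carries the cutting sites. None of its 7 genes passed the test, none had groups that did not overlap, and the median log2 fold change was -0.0245. PSMB6, the caspase-like subunit, was the lowest of the ring with either length, at 70.1 CPM per kb of principal transcript and 41.2 CPM per kb of all exons. PSMB1, a structural subunit, was highest by principal transcript at 210.4 CPM per kb, and PSMB3 was highest by all exons at 132.7 CPM per kb. PSMB1 counts were 200.3, 193.4 and 191.9 CPM in the scrambled and 189.7, 189.5 and 193.4 CPM in the knockdown samples. PSMB5, the chymotrypsin-like subunit, was at 130.6, 126.2 and 124.3 CPM in the scrambled and 123.7, 124.8 and 118.3 CPM in the knockdown samples, with a log2 fold change of -0.05 ± 0.031 (SE, adjusted p = 0.243). PSMB6 was at 60.9, 61.1 and 57.2 CPM against 61.4, 59.2 and 57.5 CPM (adjusted p = 0.903). PSMB7, the trypsin-like subunit, was at 174.9, 171.0 and 165.1 CPM against 172.0, 164.8 and 165.6 CPM (adjusted p = 0.62). The groups overlapped for these 4 genes. Without knockdown libraries 3_2 and 3_3, PSMB1 was lowered (log2 fold change -0.05, adjusted p = 0.0338).

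**Figure D2:**
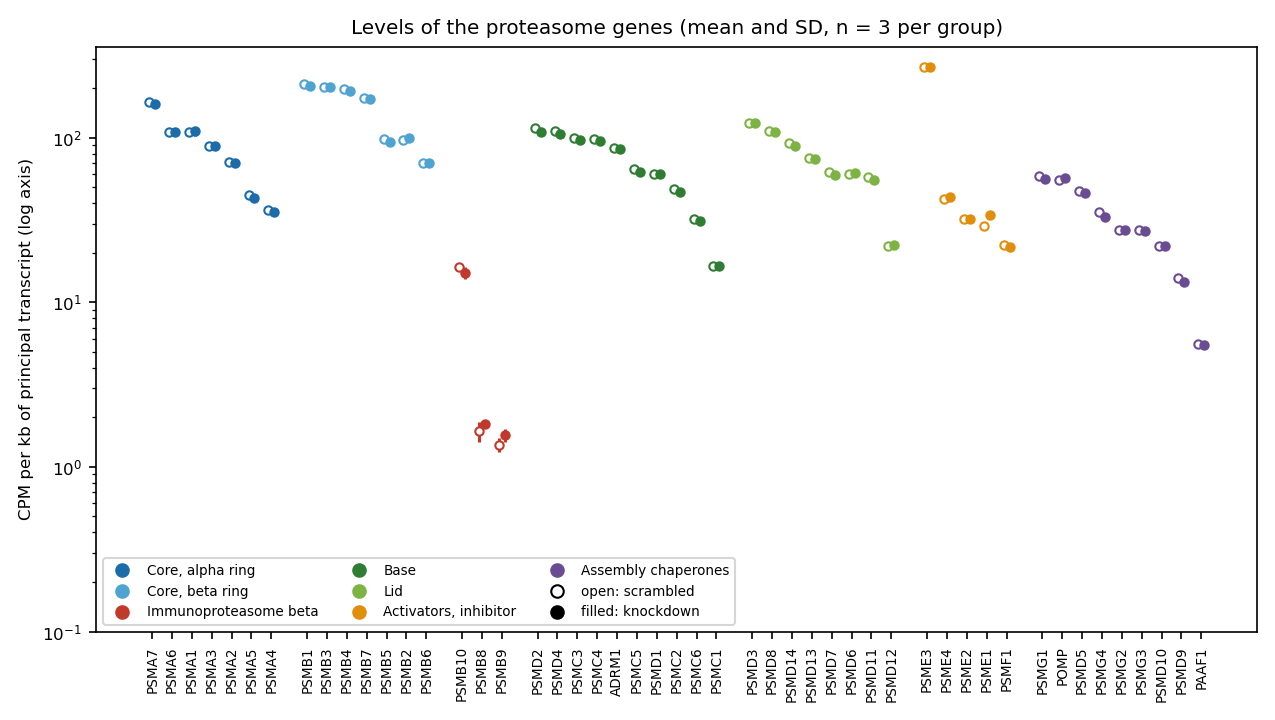
Level of the 49 tested genes in CPM per kb of principal transcript on a log axis, by role and in falling order within each role, with open points for scrambled and filled points for knockdown samples (mean and SD, n = 3). PSMB8 and PSMB9 lie near 1 to 2 CPM per kb, below every other gene shown, and the open and filled points of most genes nearly coincide.

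The base holds 6 ATPases, PSMC1 to PSMC6, the scaffolds PSMD1 and PSMD2, and the ubiquitin receptors PSMD4 and ADRM1. All 10 fitted values were below 0, from -0.0649 to -0.00887 with a median of -0.042, but none passed the test. Over all tested genes, 7706 of 15678 were below 0. With library totals only, 7 of the 10 were below 0, and without knockdown libraries 3_2 and 3_3, 9 of the 10 were. PSMD2, the highest base gene with either length at 113.6 CPM per kb of principal transcript, was at 395.9, 390.9 and 388.2 CPM in the scrambled samples and 384.5, 379.0 and 363.8 CPM in the knockdown samples. Its groups did not overlap, and the log2 fold change of -0.06 ± 0.026 (SE) had an adjusted p of 0.111. PSMC2 and PSMC5 were the other base genes whose groups did not overlap. PSMC2 was at 149.7, 146.4 and 148.6 CPM against 141.8, 142.6 and 144.7 CPM (adjusted p = 0.215). PSMC5 was at 104.6, 100.3 and 102.2 CPM against 99.8, 97.7 and 96.2 CPM (adjusted p = 0.151). PSMC1 was lowest of the base by principal transcript, at 16.7 CPM per kb, with 75.3, 72.6 and 74.7 CPM against 72.2, 75.3 and 73.6 CPM and overlapping groups. PSMC1 shares 4671 exon bases with NRDE2 on the opposite strand and has 13 annotated pseudogenes named after it, so its own reads are uncertain. Without knockdown libraries 3_2 and 3_3, PSMC2, PSMC6 and PSMD2 were lowered, with adjusted p-values of 0.00434, 0.00643 and 0.00486.

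The lid removes ubiquitin chains through PSMD14, a metalloprotease that works beside PSMD7. None of its 8 genes passed the test, and the median log2 fold change was -0.0202, with 5 genes below 0. PSMD14 was at 180.9, 183.1 and 181.2 CPM in the scrambled samples and 172.5, 172.7 and 173.5 CPM in the knockdown samples. These groups did not overlap and each spanned under 3 CPM, yet the difference of -0.07 ± 0.026 (log2, SE) had an adjusted p of 0.0605. PSMD11, a scaffold of the lid, also had groups that did not overlap, at 238.3, 233.0 and 236.0 CPM against 227.4, 223.1 and 230.7 CPM (log2 fold change -0.05, adjusted p = 0.16). PSMD3, highest of the lid by principal transcript at 122.1 CPM per kb, was at 267.3, 259.6 and 263.8 CPM against 270.9, 270.0 and 256.4 CPM. PSMD12, lowest by that length at 21.9 CPM per kb, was at 93.1, 98.1 and 97.8 CPM against 93.2, 96.4 and 103.7 CPM. The groups of PSMD3 and PSMD12 overlapped. By all exons, PSMD8 was highest of the lid and PSMD6 lowest. Without knockdown libraries 3_2 and 3_3, PSMD14 (log2 fold change -0.085, adjusted p = 4.56e-05), PSMD7 (-0.07, adjusted p = 0.014) and PSMD11 (-0.06, adjusted p = 0.00506) were lowered.

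The immunoproteasome subunits were low. PSMB8 was at 1.75, 2.14 and 1.67 CPM in the scrambled samples and 2.03, 2.17 and 1.95 CPM in the knockdown samples, with overlapping groups (log2 fold change 0.15 ± 0.12 SE, 95% interval -0.104 to 0.394, adjusted p = 0.447). PSMB9 was at 1.19, 1.02 and 0.996 CPM against 1.19, 1.34 and 1.13 CPM, again overlapping (log2 fold change 0.18 ± 0.15 SE, 95% interval -0.127 to 0.493, adjusted p = 0.439). These 2 intervals are the widest of the 49 genes, and a change of 1.2-fold was not resolved at this depth, with as few as 67 counts for PSMB9 and 112 for PSMB8 in a summed sample. PSMB10 was at 20.3, 20.0 and 19.2 CPM against 18.7, 19.6 and 16.8 CPM (log2 fold change -0.11 ± 0.052 SE, 95% interval -0.219 to -0.00445, adjusted p = 0.142). Only knockdown replicate 2 of PSMB10 reached into the scrambled range.

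Set against the constitutive subunit that each replaces, and per kb of principal transcript, PSMB8 stood at 1.68% ± 0.237 (SD, n = 3) of PSMB5 in scrambled and 1.93% ± 0.065 in knockdown samples. PSMB9 stood at 1.95% ± 0.162 of PSMB6 in scrambled and 2.24% ± 0.203 in knockdown samples. PSMB10 stood at 9.37% ± 0.0224 of PSMB7 in scrambled and 8.82% ± 0.72 in knockdown samples. Per kb of all exons the scrambled shares were 0.859%, 0.844% and 11.2%, so PSMB10 was nearest its partner with either length. PSMB8 and PSMB9 lie side by side on opposite strands and share 139 exon bases. The antisense transcript PSMB8-AS1, which shares 618 exon bases with PSMB8 and 174 with PSMB9, was at 0.0265, 0.0709 and 0.164 CPM in the scrambled and 0.271, 0.266 and 0.232 CPM in the knockdown samples (adjusted p = 0.0156). Its part in the PSMB8 and PSMB9 counts was not tested.

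The activators cap the core, and PSME1 was the single proteasome gene that passed the main test. PSME1 (chr14:24136158-24138967, plus strand, GRCh38) was at 29.1, 29.3 and 28.9 CPM in the scrambled samples (mean 29.1 ± 0.163 SD) and 35.0, 34.7 and 32.3 CPM in the knockdown samples (mean 34.0 ± 1.48 SD). All knockdown samples lay above all scrambled samples, with replicate 3 the lowest of them. PSME1 rose 1.17-fold (log2 fold change 0.22 ± 0.040 SE, 95% interval 0.142 to 0.306, edgeR adjusted p = 0.000323). In the single libraries it ran from 27.3 to 31.1 CPM in the 9 scrambled libraries, and 8 of the 9 knockdown libraries lay above that range. The exception was knockdown library 3_2 at 29.7 CPM, and all 7 knockdown libraries other than 3_2 and 3_3 lay above it. Without those 2 libraries the log2 fold change was 0.255 (adjusted p = 4.42e-10). Tested against a 1.2-fold change in place of no change, PSME1 was not called, with an adjusted p of 1. Its estimate of 1.17-fold lies below that limit, so this test could not have called it.

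PSME2, which encodes the partner subunit in the same cap, was at 45.2, 45.9 and 44.2 CPM in the scrambled samples and 45.6, 43.5 and 46.2 CPM in the knockdown samples. The PSME2 groups overlapped (log2 fold change -0.000267, 95% interval -0.0741 to 0.0736, adjusted p = 0.997). The level of PSME1 per kb was 90.0%, 88.9% and 91.3% of that of PSME2 in the scrambled samples and 107%, 111% and 97.5% in the knockdown samples. Per kb of all exons, the mean share was 130% in scrambled and 152% in knockdown samples, so which of the pair is higher depends on the length used, while the share was larger in the knockdown samples with either. The genes are neighbours on chromosome 14, with EMC9 between them. EMC9 shares 9 exon bases with PSME1 on the opposite strand and was at 4.92 ± 0.490 CPM in scrambled and 4.47 ± 0.331 CPM in knockdown samples (adjusted p = 0.297). RNF31, which shares 216 exon bases with PSME2 on the opposite strand, had a log2 fold change of -0.07 (adjusted p = 0.206), and DCAF11, upstream of PSME1, one of 0.01 (adjusted p = 0.925). PSME2 also has 2 annotated pseudogenes named after it, so its own reads are uncertain. PSME1 has none by name, but pseudogenes under other names were not counted.

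**Figure D3:**
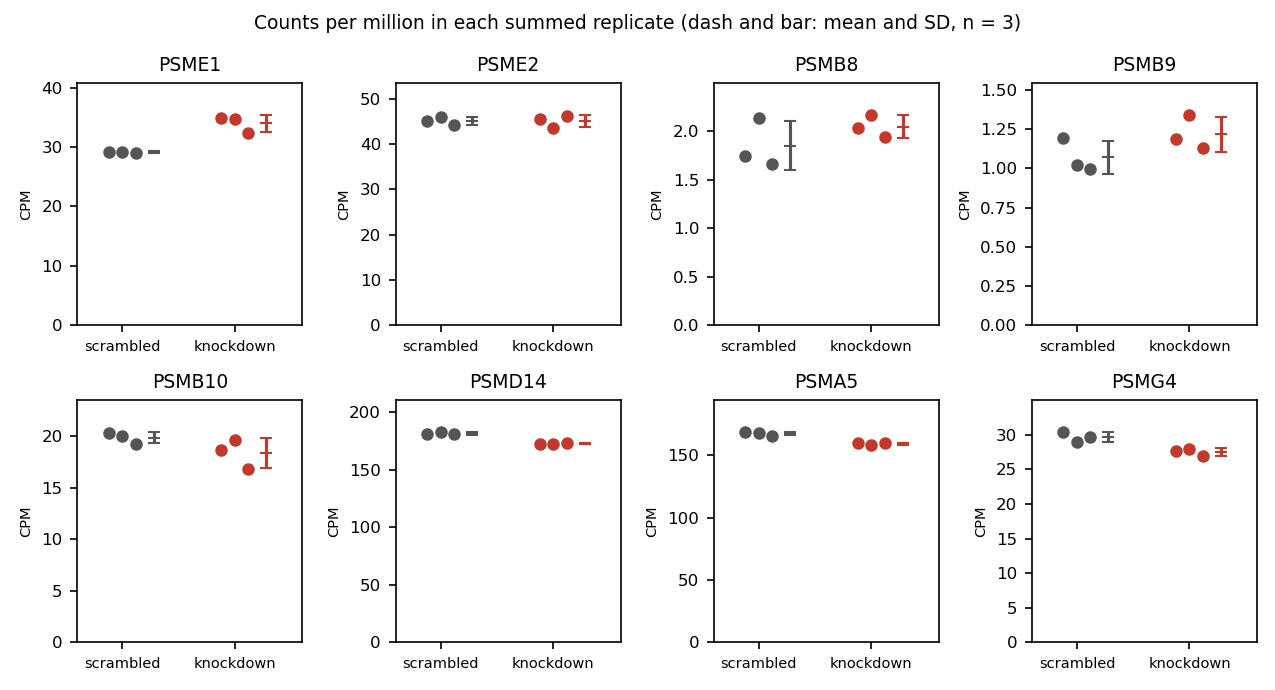
CPM from 0 on the y axis in each of the 3 scrambled and 3 knockdown samples of 8 proteasome genes, with a dash and bar for mean and SD. The PSME1 groups are clearly apart with knockdown higher, the PSMD14, PSMA5 and PSMG4 groups are narrowly apart with knockdown lower, and the groups of the other 4 genes overlap.

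Because PSME1, PSME2 and the immunoproteasome genes are textbook interferon targets, their promoters were searched for the core of the interferon-stimulated response element, written as GAAA, any 2 bases and GAAA again. The RefSeq promoter windows (GRCh38.p14, 250 bases before to 50 after a gene's start) matched 45 of the 51 genes in 55 windows, and none was found for PSMA7, PSMB1, PSMB6, PSMB7, PSMD4 and PSMG3. On either strand, 7 of the 45 genes held this motif, in 12.7% of their windows, against 3.57% of all 35116 windows. They were PSME1, PSME2, PSMB8, PSMB10, PSMG4, PSMA4 and PSMB4, while the immunoproteasome gene PSMB9 held no match. In 5 of the 7 the match was the same 10 letters, GAAAGCGAAA, which occur in 0.0997% of all windows. Those letters were picked as the most common among the matches of these genes, so the share over all windows is description only. The 5 sites are shown on the gene's own strand, 5′ to 3′, with the match in capitals, to set PSME1 beside 4 genes that hold the same letters.
PSME1: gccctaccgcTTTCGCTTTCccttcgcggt
PSME2: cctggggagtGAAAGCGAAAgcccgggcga
PSMB8: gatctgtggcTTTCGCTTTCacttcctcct
PSMB10: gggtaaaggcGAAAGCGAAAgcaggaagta
PSMG4: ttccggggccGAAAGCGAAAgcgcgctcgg
Positions count from the start on which each RefSeq window is built, taken as 1. For PSME1 that start is not the first base of the gene coordinates given above. The PSME1 site lies at chr14:24136189-24136218 (plus strand), with the match beginning at position 6. That of PSME2 lies at chr14:24146619-24146648 (minus strand, position -28), that of PSMB8 at chr6:32844032-32844061 (minus strand, position -4), that of PSMB10 at chr16:67936852-67936881 (minus strand, position -21) and that of PSMG4 at chr6:3258904-3258933 (plus strand, position -33). Among these 5 genes PSME1 rose, and the log2 fold changes of PSME2, PSMB8, PSMB10 and PSMG4 were -0.000267, 0.15, -0.11 and -0.11, none past the test. A match of letters is a description and does not show that a factor binds.

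NFE2L1 acts through antioxidant-response elements, which hold the letters TGACNNNGC. These letters were in the windows of 16 of the 45 genes, in 30.9% of windows against 13.3% of all windows, and shared no base with a match of the interferon motif. The pair of PSME genes again both held a match, shown because one of them rose and the other did not.
PSME1: atggcagggcTGACCCCGCctcctccatcc
PSME2: ccctggactgTGACCCAGCcagcaccgcct
The first lies at chr14:24136098-24136127 (plus strand, position -86) and the second at chr14:24146766-24146795 (minus strand, position -175). CCAAT was in 22 of the 45 genes and 41.8% of windows, against 34.6% of all windows. CCGGAAG, the letters bound by ETS factors, was in 17 genes and 30.9% of windows, against 10.3% of all windows. All motifs were searched on both strands. The shares over all windows include genes that were not tested here and were not matched for level or GC content. Whether such matching would change the differences was not tested.

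The other 3 genes of this class did not pass the test. PSME3, which encodes the nuclear activator, was the highest proteasome gene per kb of principal transcript at 269.9 CPM per kb and the 14th per kb of all exons. It was at 270.7, 269.2 and 268.2 CPM in the scrambled and 265.6, 267.3 and 270.1 CPM in the knockdown samples, an overlap within a few CPM (log2 fold change -0.01 ± 0.025 SE). PSME4, a large activator linked to histone turnover, was at 298.0, 305.8 and 303.1 CPM against 299.3, 303.5 and 324.6 CPM, with knockdown replicate 3 the highest (adjusted p = 0.486). PSMF1, which inhibits the isolated core, was lowest of the class by principal transcript at 22.2 CPM per kb, with 98.1, 94.1 and 92.9 CPM against 92.1, 92.6 and 94.1 CPM (adjusted p = 0.52).

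Assembly chaperones build the core (PSMG1 to PSMG4 and POMP) and the base (PAAF1, PSMD5, PSMD9 and PSMD10). None of the 9 genes passed the test, and the median log2 fold change was -0.0184, with 7 genes below 0. PSMG4 was at 30.4, 28.9 and 29.6 CPM in the scrambled samples and 27.64, 27.95 and 26.90 CPM in the knockdown samples. The PSMG4 groups did not overlap, and its log2 fold change of -0.11 ± 0.039 (SE) had an adjusted p of 0.0543, the smallest among the genes that did not pass. PSMG4 shares 1388 exon bases with SLC22A23 on the opposite strand, which had a log2 fold change of 0.11 (adjusted p = 0.0743). PSMG1, highest of the class by principal transcript at 58.3 CPM per kb, was at 124.1, 126.4 and 125.9 CPM against 118.5, 117.6 and 128.7 CPM, with knockdown replicate 3 above all scrambled samples and the other 2 below. PAAF1, lowest of the class by that length at 5.61 CPM per kb, was at 27.8, 28.7 and 27.5 CPM against 28.1, 27.1 and 27.7 CPM, and its groups overlapped. POMP, which is consumed as the core matures, was at 69.5, 77.0 and 73.2 CPM against 71.9, 73.8 and 80.0 CPM, and its groups overlapped as well. Without knockdown libraries 3_2 and 3_3, PSMG1, PSMG4 and PSMD5 were lowered, with adjusted p-values of 0.000167, 0.0448 and 0.00887.

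Knockdown replicate 3 differed from knockdown replicates 1 and 2 along GC content. Over the 49 genes, whose transcripts ran from 32.0% to 64.2% GC, the log2 difference of replicate 3 from the mean of the other 2 had a Pearson coefficient of -0.71 and a Spearman coefficient of -0.733 with GC content. These points come from the same 3 samples and describe them. The 9 genes under 40% GC had a median difference of 0.073 (range 0.0049 to 0.13), and the 5 genes above 55% GC had one of -0.11 (range -0.19 to -0.047). For scrambled replicate 3 the Spearman coefficient was -0.377. Among the examples, POMP at 34.6% GC was 0.134 higher in knockdown replicate 3, and PSMB10 at 60.1% GC was 0.190 lower.

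**Figure D4:**
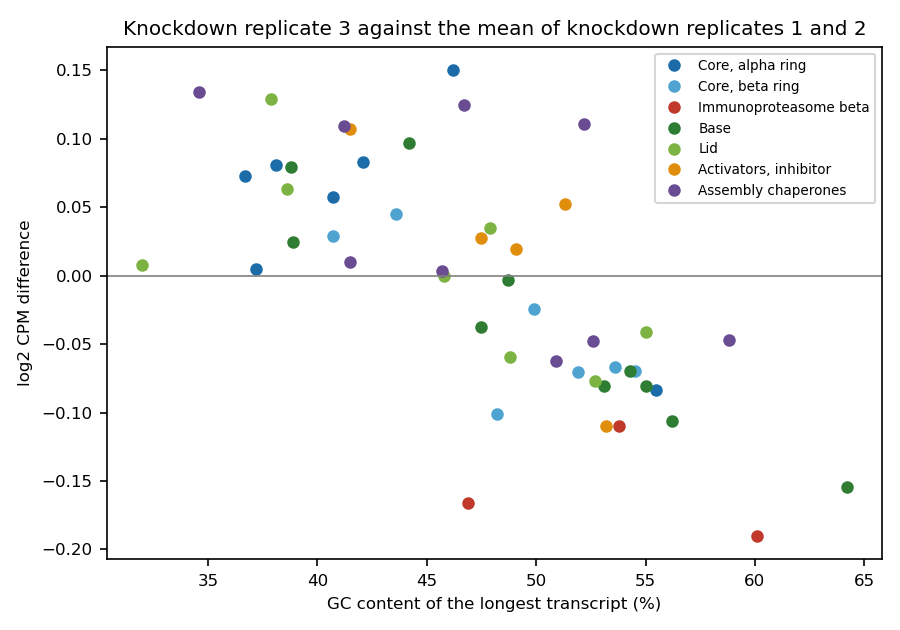
GC content of the longest transcript in percent on the x axis against the log2 CPM difference of knockdown replicate 3 from the mean of knockdown replicates 1 and 2 on the y axis, one point for each of the 49 genes, coloured by role. Points fall from above 0 at low GC to below 0 at high GC, with a Spearman coefficient of -0.733.

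The count of lowered proteasome genes moved with the treatment of these libraries. Libraries 3_2 and 3_3 stood out over these same genes, so the calls without them are description. Without knockdown libraries 3_2 and 3_3, 12 of the 49 genes were lowered and PSME1 was raised, where 15.5% of all tested genes were lowered. Without the whole of knockdown replicate 3, 11 were lowered, where 14.3% of all were. With a correction of every sample for GC content, 13 were lowered, where 16.7% of all were. With the replicate number as a block, 4 were lowered, where 11.3% of all were. With RLE scaling factors 2 were lowered (8.18% of all genes), with libraries entered singly 9 (14.7%), with libraries summed by the second number 14 (15.2%), and with the GC correction and the block together 15 (16.8%). Entering libraries singly counts technical libraries as replicates, so those p-values do not measure the spread between biological replicates. The sizes stayed small: over all settings the log2 fold change of PSMD14 ran from -0.123 to -0.06, that of PSMA5 from -0.0944 to -0.0602 and that of PSMG4 from -0.127 to -0.0902. The same 9 genes were lowered without libraries 3_2 and 3_3, without replicate 3 and with the GC correction: PSMA4, PSMA5, PSMC2, PSMC6, PSMD2, PSMD7, PSMD11, PSMD14 and PSMG4, where 11.8% of all genes were lowered in all 3. Of the 49 genes, 19 were lowered under at least 1 of 18 alternative settings, against 3236 of all 15678 genes (20.6%). Under no setting were 29 of the 49 called, against 9310 of all 15678 genes (59.4%).

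**Figure D5:**
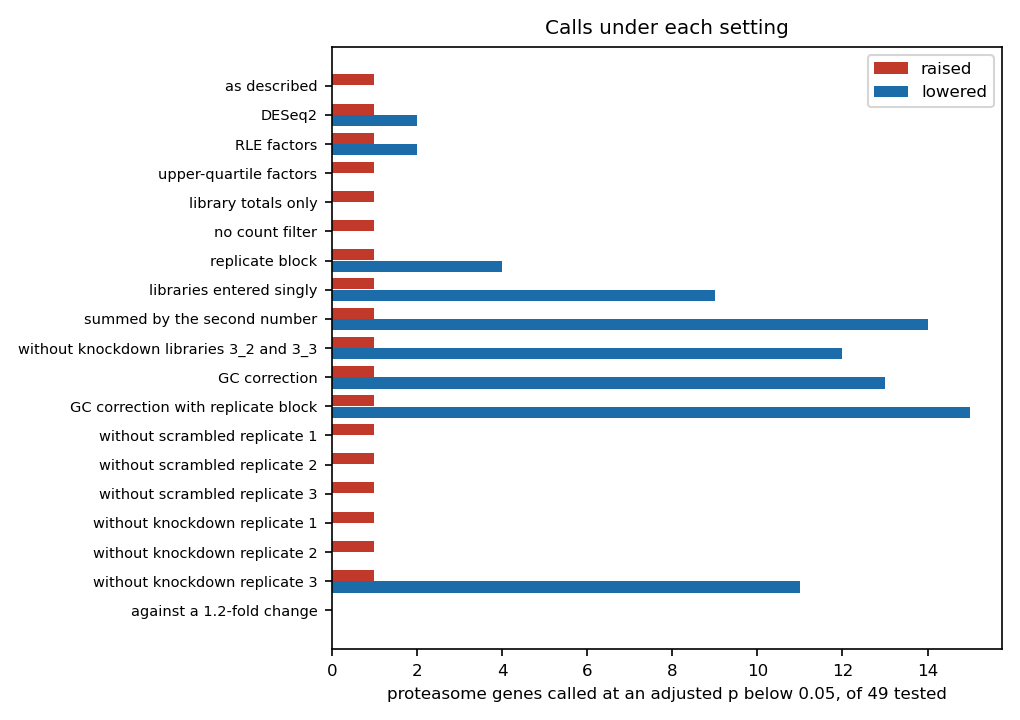
Number of the 49 tested genes called raised or lowered at an adjusted p below 0.05 on the x axis under each setting on the y axis. The raised gene is PSME1 in each setting except the test against a 1.2-fold change, and the lowered count runs from 0 to 15.

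The pathway around the proteasome was read from 39 other genes, all of which were tested. One was raised and 4 were lowered, against the 11.1% and 7.49% of all genes given above, and the median log2 fold change was -0.0132. A list of 9 genes covered proteasome transcription and NFE2L1 processing. NFE2L1 itself was at 173.2, 172.4 and 167.8 CPM in the scrambled and 164.6, 165.3 and 154.5 CPM in the knockdown samples, with no overlap (log2 fold change -0.08 ± 0.030 SE, adjusted p = 0.0561). NGLY1, which removes the sugars from NFE2L1 as it is activated, fell from 93.5, 93.7 and 94.0 CPM to 84.6, 86.1 and 87.7 CPM (log2 fold change -0.12 ± 0.030 SE, adjusted p = 0.00627). NFE2L3, a relative of NFE2L1, rose from 16.9, 17.5 and 16.7 CPM to 17.6, 19.5 and 20.0 CPM (log2 fold change 0.16 ± 0.051 SE, adjusted p = 0.0284). The groups of NGLY1 and NFE2L3 did not overlap.

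Of the 17 deubiquitinases, ligases, shuttles and other proteins that bind the proteasome, 2 were lowered and 0 raised. PSME3IP1, whose product binds the PSME3 activator, fell from 111.2, 113.8 and 112.9 CPM to 100.4, 96.9 and 101.6 CPM (log2 fold change -0.18 ± 0.030 SE, adjusted p = 0.000249), while PSME3 did not pass the test. PITHD1 fell from 115.9, 114.2 and 115.6 CPM to 110.2, 108.6 and 106.5 CPM (log2 fold change -0.09, adjusted p = 0.0395). Among 7 genes of the VCP segregase, which pulls ubiquitinated proteins out of complexes, the cofactor NPLOC4 fell from 224.0, 225.6 and 217.1 CPM to 214.6, 210.2 and 206.1 CPM (log2 fold change -0.08, adjusted p = 0.0449). None of the 6 ubiquitin and ubiquitin-activating genes passed the test. The groups of PSME3IP1, PITHD1 and NPLOC4 did not overlap, and all 3 differences were smaller in size than the rise of PSME1. PSME3IP1 and NGLY1 were called in 17 of 18 alternative settings, and NFE2L3 in 12, PITHD1 in 11 and NPLOC4 in 11. Without libraries 3_2 and 3_3, 16 of the 39 genes were lowered and 3 raised, where 15.5% of all genes were lowered and 16.5% raised. With scrambled replicate 1, 2 or 3 left out, 2 of the 39 were lowered each time, where 3.95%, 3.92% and 4.63% of all genes were.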

How the data were processed

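The 18 libraries are RNA-seq of K562 cells. Per the submitters' processing notes, reads were trimmed with Trim Galore, aligned with STAR and counted with featureCounts, with GRCh38 as build. Tool versions, the annotation and the strand setting were not stated there. The values deposited by the authors are raw counts per gene symbol. The labels give each library 2 numbers and do not define which is the biological replicate. The first was taken as that and technical libraries were summed by it, and sums by the second are an alternative. Nothing says whether biological replicates were separate cultures, so p-values measure the spread between these samples, which may be technical.

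The main test was the quasi-likelihood test of edgeR 4.0.16 under R 4.3.3, robust, after filterByExpr and TMM scaling. P-values were adjusted by Benjamini-Hochberg over 15678 genes, and an adjusted p below 0.05 was called. Errors on CPM are SDs over 3 samples. GENCODE release 29 gave lengths, overlaps and GC content (for 96.4% of tested genes), and the GC correction used a lowess span of 0.3. Of the 51 genes, 25 share exon bases with another gene, 21 with one on the opposite strand. Annotated pseudogenes named after the gene exist for 12, and those under other names were not counted. Reads may therefore be split or merged. The procedure was tested on simulated data.

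The genes, classes, lists and tests were chosen with earlier results of these data known. Genes given by sample were PSME1, the catalytic subunits, the highest and lowest gene per class, NFE2L1 and up to 3 called genes per pathway list. PSME2, PSME4, POMP, PSMA5, PSMC2, PSMC5, PSMD11, PSMD14, PSMG4, PSMB8-AS1 and neighbouring genes were added after their values were seen. Alternatives were DESeq2 1.42.0, other scalings, no count filter, the replicate block, other groupings of libraries, left-out replicates or libraries, a GC correction and a test against a 1.2-fold change. The length over all exons was added after the data were seen, and the letters GAAAGCGAAA were picked from the matches found in these genes.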

Additional observations from a re-analysis of the deposited data

How the results depend on the processing

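PSME1 was raised under 17 of 18 alternatives, with log2 fold changes from 0.203 to 0.26. The other, the test against a 1.2-fold change, called 0 proteasome genes raised, and none of their fitted values reached that limit. The number of lowered proteasome genes, 0 as reported, was 2 with DESeq2, 2 with RLE factors, 4 with the replicate block, 9 with libraries entered singly, 14 when summed by the second number, 12 without knockdown libraries 3_2 and 3_3, 13 with the GC correction and 15 with the GC correction and the replicate block. With 1 replicate left out it ran from 0 to 11, the 11 coming without knockdown replicate 3, and the number raised was 1 each time. It stayed 0 with upper-quartile factors, library totals and no count filter. The cause of these differences was not tested. PSMB8 and PSMB9 were called under none, and PSMB10 was lowered under 4.

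Residuals of same-numbered samples correlated at 0.0302, 0.0114 and 0.0113. Those of differently numbered samples correlated at -0.0405 to 0.0267, the latter for scrambled replicate 2 with knockdown replicate 3. Correlations this near 0 do not settle whether the replicate numbers pair the samples. The replicate block called 1 raised and 4 lowered. The other pathway genes ranged from 0 to 16 lowered and 0 to 4 raised. Low counts limit PSMB8 and PSMB9, and levels between genes depend on the length used: PSMG4 is at 35.4 CPM per kb of principal transcript and 2.85 per kb of all exons.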
